A study of Mus musculus with 12 samples.

Results

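The basophil and mast cell genes Prss34, Mcpt8, Cpa3, Ms4a2, Fcer1a, Gata2, Il4, Cd200r3 and Kit were followed across 4 groups of spleen cell libraries. They are the rows of the count table that carry these 9 symbols among 50643 genes. The 9 were chosen by name, with earlier results of these data known. All 9 were found, and all 9 passed the filter on low counts that left 16694 genes for testing. Levels are given as CPM, a gene's count scaled by the library's total count so that the genes of a library sum to the same value.

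RNA was measured by polyA RNA-seq in natural killer (NK) cells isolated by negative selection from spleens of C57BL/6 mice. The 4 groups were wild-type unchallenged, wild-type challenged with Listeria (an intracellular bacterium), Mirc11-/- unchallenged and Mirc11-/- challenged, with 3 libraries each. Mirc11-/- mice, called knockout here, lack a microRNA cluster that the series title places upstream of ubiquitin modifiers, TRAF6, NF-kB and AP1 in NK cells. The design text calls the libraries biological replicates but does not say whether each came from a single mouse or a pool, and the p-values measure the spread between these libraries. The labels do not give the age and sex of the mice, the dose, route and time of the challenge, and how the knockout was made.

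Basophils and mast cells are granule-bearing cells armed with IgE. Both carry the high-affinity IgE receptor, made of an alpha chain (Fcer1a), a beta chain (Ms4a2) and a gamma chain shared with other receptors, and both store proteases in their granules. In mice, Prss34 (mMCP-11) and Mcpt8 (mMCP-8) are proteases typical of basophils, Cpa3 is a carboxypeptidase of both lineages, and the stem cell factor receptor Kit is retained by mast cells and by progenitors while mature basophils carry little of it. Gata2 is a transcription factor needed by both lineages, Cd200r3 is an activating receptor, and Il4 is the cytokine through which basophils and T helper cells drive type 2 immunity. Kit and Gata2 are also transcribed outside these lineages, so their levels in a mixed preparation are not those of basophils or mast cells alone.

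Library totals ran from 17624530 to 23665679 counts, so 1 count was worth 0.0423 to 0.0567 CPM. The microRNA genes of the deleted cluster, Mir23a, Mir27a and Mir24-2, were at 0 counts in all 12 libraries, which checks nothing about the genotype labels. NK markers were present throughout: the 12 summed to a mean of 7510 CPM without challenge and 5470 CPM with challenge in wild-type cells. Opposite changes lay within that sum. With challenge Gzmb rose from a mean of 246 to 1730 CPM. Of the 12 markers 9 fell, Klrb1c from 956 to 147 CPM, where 30.9% of all tested genes were called lower. The sum is therefore not a measure of NK cell content. Xist, the transcript of the inactive X chromosome, was at 1200 to 2020 CPM in unchallenged wild-type libraries and 0.362 to 1.08 CPM in unchallenged knockout libraries. The Y-linked Ddx3y was at 83.6 to 135 CPM in unchallenged knockout and at 0.0546, 0.102 and 34.6 CPM in unchallenged wild-type. Unchallenged wild-type replicate 4 and all 3 challenged knockout libraries held both transcripts. After challenge, Ddx3y ranged from 0 to 0.133 CPM for wild-type libraries and from 44.1 to 80.5 CPM for knockout ones. Xist then ranged from 1150 to 1460 CPM and from 526 to 1030 CPM, in that order. The sex-linked pattern therefore cannot be told apart from genotype with or without challenge, nor from challenge within the knockout. The difference between genotypes in the response to challenge uses all 4 groups, so it shares this limit. In unchallenged wild-type replicate 4, with Ddx3y at 34.6 CPM and Xist at 1200 CPM, Prss34 was at 6.55 CPM, between replicates 2 and 3. As it held both transcripts, this 1 library cannot separate the sex-linked pattern from genotype. Unchallenged wild-type replicate 4 and challenged knockout replicate 3 were treated as libraries in doubt, the second because it was lowest of its group in neutrophil markers. Results that change without both of them are named below.

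In GRCm38, with GENCODE vM21, all 9 genes are annotated as protein-coding. Their positions and the identifiers in the count table are as follows. Prss34 (ENSMUSG00000056399) is at chr17:25298394-25300165 on the plus strand, and Mcpt8 (ENSMUSG00000022157) at chr14:56082166-56085273 on the minus strand. Cpa3 (ENSMUSG00000001865) is at chr3:20215620-20242181 on the minus strand. Fcer1a (ENSMUSG00000005339) is at chr1:173221284-173227214 and Ms4a2 (ENSMUSG00000024680) at chr19:11615523-11623719, both on the minus strand. Cd200r3 (ENSMUSG00000036172) is at chr16:44943678-44981380, Kit (ENSMUSG00000005672) at chr5:75574916-75656722 and Gata2 (ENSMUSG00000015053) at chr6:88193891-88207032, all on the plus strand. Il4 (ENSMUSG00000000869) is at chr11:53602982-53618669 on the minus strand. A pair of microRNA genes overlap them, Mir7007 in Cpa3 and Mir6949 in Mcpt8, and both were at 0 counts.

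The mature microRNAs of the deleted cluster are shown because the knockout lacks the genes of that cluster. They are RefSeq sequences in the build GRCm38.p6, from chromosome 8, with the seed (bases 2 to 8 from the 5′ end) in capitals.
mmu-miR-23a-3p: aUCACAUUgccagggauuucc
mmu-miR-27a-3p: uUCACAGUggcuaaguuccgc
mmu-miR-24-3p: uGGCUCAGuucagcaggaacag
The 3 seeds differ from each other. The third is also made from another locus, so the deletion need not remove it from the cell. Whether any of the 3 seeds was lost from the knockout cells was not measured.

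The 7-base complements of these seeds, AATGTGA for miR-23a-3p, ACTGTGA for miR-27a-3p and CTGAGCC for miR-24-3p, were searched on the transcribed strand in the longest annotated 3′ untranslated region of 8 of the genes, all but Kit. Among 21005 genes with such a region, 15.1%, 16.0% and 16.2% held them, and 36.5% held at least 1 of the 3. At least 1 was present in 5 of these 8 genes: ACTGTGA in Ms4a2 and Gata2, and CTGAGCC in Mcpt8, Gata2, Il4 and Cd200r3. Prss34, Cpa3 and Fcer1a held none of the 3. The stretches below end with the match in capitals and the base after it, and are shown for 4 of the 5 genes with a match.
Ms4a2, miR-27a-3p: atggataggtacattcagggatACTGTGAg
Gata2, miR-27a-3p: ctcccagccttgtgccgccattACTGTGAa
Mcpt8, miR-24-3p: cagcatcctggggtatggttgtCTGAGCCt
Il4, miR-24-3p: taCTGAGCCa
A match is a string of letters and not a measured site. All 8 genes searched, those with a match and those without, were called higher in the unchallenged knockout. For Il4 that call was lost under several other settings, given below. The part of the matches in these differences was not tested.

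The 250 bases before the RefSeq start site are shown for the 5 genes whose window held the letters AGATAA or TGATAA, the strings that GATA factors such as Gata2 are known to bind, on either strand. Seen from the opposite strand these read TTATCT or TTATCA, and the matches are in capitals. Such a match was present in 18.8% of the 27025 genes with a window, and in 16.6% of the 32851 windows.
Prss34, chr17:25298144-25298393, plus strand: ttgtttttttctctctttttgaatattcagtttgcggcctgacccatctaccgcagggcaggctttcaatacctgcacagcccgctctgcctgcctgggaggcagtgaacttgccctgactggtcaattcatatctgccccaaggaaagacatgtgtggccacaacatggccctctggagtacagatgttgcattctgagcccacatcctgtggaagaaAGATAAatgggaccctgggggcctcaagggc
Cpa3, chr3:20242182-20242431, minus strand: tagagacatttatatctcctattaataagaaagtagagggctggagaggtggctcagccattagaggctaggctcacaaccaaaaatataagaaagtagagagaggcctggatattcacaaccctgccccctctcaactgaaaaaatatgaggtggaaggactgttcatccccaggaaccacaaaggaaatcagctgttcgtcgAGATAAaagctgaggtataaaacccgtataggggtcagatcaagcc
Fcer1a, chr1:173227230-173227479, minus strand: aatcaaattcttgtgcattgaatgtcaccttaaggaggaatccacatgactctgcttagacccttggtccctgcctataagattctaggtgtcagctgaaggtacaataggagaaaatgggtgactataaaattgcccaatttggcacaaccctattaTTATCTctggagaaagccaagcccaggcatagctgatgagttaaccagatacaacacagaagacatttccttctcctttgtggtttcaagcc
Ms4a2, chr19:11623720-11623969, minus strand: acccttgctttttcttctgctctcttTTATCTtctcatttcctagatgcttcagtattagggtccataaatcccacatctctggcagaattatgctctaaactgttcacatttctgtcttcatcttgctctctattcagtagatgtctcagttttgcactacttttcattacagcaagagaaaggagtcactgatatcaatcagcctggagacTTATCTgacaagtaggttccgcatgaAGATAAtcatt
Cd200r3, chr16:44943428-44943677, plus strand: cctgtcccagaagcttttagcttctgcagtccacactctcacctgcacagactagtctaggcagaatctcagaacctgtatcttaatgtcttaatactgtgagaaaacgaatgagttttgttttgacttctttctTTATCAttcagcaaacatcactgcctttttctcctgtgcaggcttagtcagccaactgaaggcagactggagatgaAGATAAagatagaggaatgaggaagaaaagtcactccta
Ms4a2 held 3 matches and Cd200r3 held 2, while Prss34, Cpa3 and Fcer1a held 1 each. The windows of Mcpt8, Gata2, Il4 and Kit had no such string in these bases. Binding was not measured.

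In unchallenged cells, 8 of the 9 genes were higher in the knockout and 1, Kit, was lower. Called genes are those with an adjusted p below 0.05 in edgeR's quasi-likelihood test, and over all tested genes 6.64% were called higher, 5.07% lower and 11.7% in either direction in this comparison. The median log2 fold change of the 9 genes was 1.68, against -0.01 over all tested genes. As the 9 were chosen with earlier results of these data known, such comparisons with all tested genes are a description. The unchallenged knockout and wild-type libraries did not overlap for any of the 9 genes, which was the case for 32.6% of all tested genes. The largest differences were those of Mcpt8, 7.18-fold, and Prss34, 6.89-fold. The count of higher genes was 7 to 8 when 1 library was left out. The Il4 call was lost in DESeq2 and under other settings given below. Libraries are preparations of many cells, and fewer cells of a type and less RNA per cell cannot be told apart in these values.

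After challenge of wild-type mice, 6 of the 9 genes rose and 1, Kit, fell, where 32.4% of all tested genes were called higher, 30.9% lower and 63.4% in either direction. The median log2 fold change of the 9 was 1.07, against -0.01 over all tested genes. The 2 wild-type groups did not overlap for 7 of the 9 genes, against 70.3% of all tested genes. The genes that rose were Prss34, Mcpt8, Cpa3, Fcer1a, Ms4a2 and Gata2, by 1.95-fold to 3.1-fold. In challenged knockout mice, 0 of the 9 genes were called higher in edgeR and 3 fell, Fcer1a, Cd200r3 and Gata2, where 15.6% of all tested genes were called higher, 11.5% lower and 27.0% in either direction. The count of genes that fell was 5 with upper-quartile scaling and in DESeq2, and 1 without unchallenged knockout replicate 3. The count of higher genes was also 0 at an unadjusted p below 0.05, in DESeq2 and in limma-voom. The median of the 9 genes was -0.28, against -0.01 over all tested genes, and 4 of them did not overlap between the knockout groups, against 39.3% of all tested genes.

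With both genotypes challenged, 4 of the 9 genes were higher in the knockout, 3 were lower and 2 were not called, where 22.7% of all tested genes were called higher, 25.9% lower and 48.7% in either direction. Libraries did not overlap for 8 of the 9 genes, against 53.6% of all tested genes. The difference of the responses, challenge in knockout minus challenge in wild-type, was tested in the same fit. In edgeR it was called lower for 7 of the 9 genes and higher for 0, also at an unadjusted p below 0.05, in DESeq2 and in limma-voom, where 18.5% of all tested genes were called lower, 16.7% higher and 35.2% in either direction. The median of the 9 was -1.35 against 0.00. The wild-type challenge and the unchallenged genotype comparison share the unchallenged wild-type libraries, so their values are set side by side below and not correlated.

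**Figure D1:**
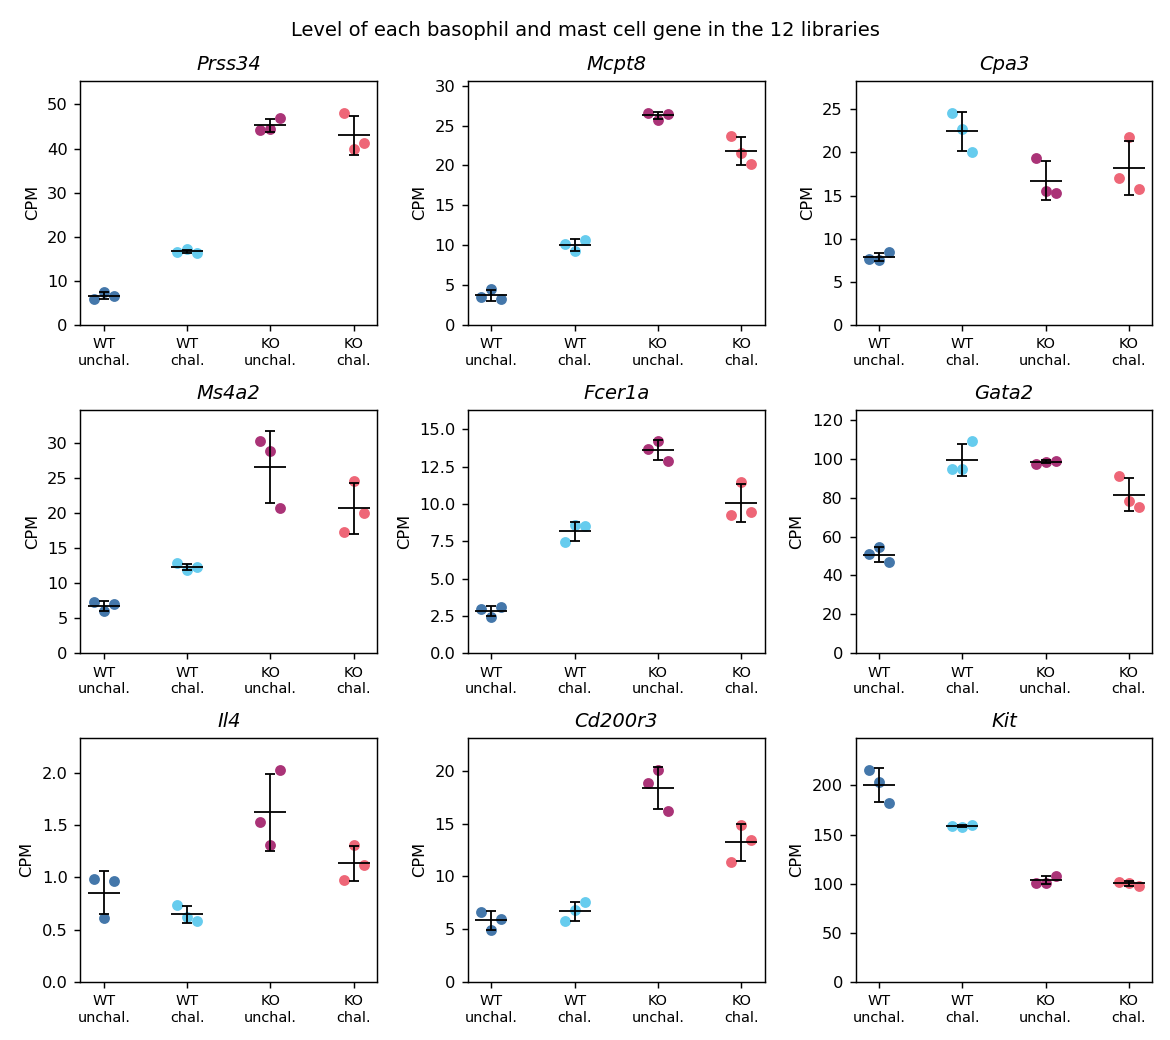
CPM (y axis, linear, from 0) of each of the 9 genes in the 12 libraries, by group: wild-type (WT) and knockout (KO), unchallenged (unchal.) and challenged (chal.). Points are libraries, the horizontal bar is the mean of 3 and the error bar its SD; unchallenged wild-type libraries are lowest for Prss34, at 5.89 to 7.47 CPM, and highest for Kit, at 182 to 216 CPM.

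Among the granule proteases, Prss34 was at 5.89, 7.47 and 6.55 CPM in unchallenged wild-type libraries and at 16.5, 17.1 and 16.4 CPM in challenged ones. In the knockout it was at 44.3, 44.4 and 47 CPM unchallenged and at 48.1, 39.8 and 41.3 CPM challenged. The 6 knockout libraries were all above the 6 wild-type ones, and within the knockout the challenged and unchallenged libraries overlapped. The log2 fold change with challenge was 1.43 ± 0.10 (SE, 3 libraries a group; edgeR adjusted p = 1.19e-08) in wild-type and -0.08 ± 0.09 (edgeR adjusted p = 0.56) in the knockout. The genotype difference was 2.78 ± 0.10 unchallenged (edgeR adjusted p = 8.86e-10) and 1.28 ± 0.09 challenged (edgeR adjusted p = 3.22e-08). Fold changes here come from the fit, which scales libraries by TMM, and differ a little from ratios of the CPM.

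Mcpt8 followed the same order of groups. It was at 3.44, 4.45 and 3.2 CPM in unchallenged and at 10.2, 9.24 and 10.6 CPM in challenged wild-type libraries. The knockout libraries held 26.6, 25.7 and 26.5 CPM unchallenged and 23.7, 21.6 and 20.2 CPM challenged, all of them above every wild-type library. Mcpt8 rose with challenge in wild-type by 1.54 ± 0.12 on the log2 scale (edgeR adjusted p = 3.47e-08). In the knockout its challenged libraries were all below the unchallenged ones, with a log2 fold change of -0.27 ± 0.10 that was not called (edgeR adjusted p = 0.0598) and that was called under 5 of the other settings run and without challenged knockout replicate 1 (edgeR adjusted p = 0.0258). The genotype difference was 2.84 ± 0.12 unchallenged (edgeR adjusted p = 3.05e-09) and 1.04 ± 0.11 challenged (edgeR adjusted p = 1.20e-06).

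Cpa3, the protease that basophils and mast cells share, had another order. It was lowest in unchallenged wild-type, at 7.64, 7.57 and 8.43 CPM, and highest in challenged wild-type, at 24.6, 22.7 and 20 CPM. The knockout libraries lay between, at 19.3, 15.5 and 15.3 CPM unchallenged and 17, 21.8 and 15.8 CPM challenged, and these 2 groups overlapped. Cpa3 rose with challenge in wild-type by 1.61 ± 0.13 (log2, edgeR adjusted p = 4.29e-08), while the knockout value was 0.12 ± 0.13 (edgeR adjusted p = 0.544). Unchallenged, it was 2.14-fold higher in the knockout (log2 1.10 ± 0.13, edgeR adjusted p = 4.32e-05). Challenged, it was 1.32-fold lower in the knockout (log2 -0.40 ± 0.12, edgeR adjusted p = 0.014), with overlapping libraries. That call was lost without challenged knockout replicate 3 (edgeR adjusted p = 0.0676), without challenged wild-type replicate 1 (0.06), without both libraries in doubt (0.0777) and with column totals as the scaling (0.0598).

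Fcer1a, the IgE-binding alpha chain of the receptor, was at 2.95, 2.46 and 3.1 CPM in unchallenged and 7.45, 8.58 and 8.5 CPM in challenged wild-type libraries. The unchallenged knockout libraries were highest, at 13.7, 14.2 and 12.9 CPM, and the challenged ones held 9.25, 11.5 and 9.44 CPM. No 2 of the 4 groups overlapped. Fcer1a rose with challenge in wild-type by 1.63 ± 0.13 (log2, edgeR adjusted p = 4.14e-08) and fell in the knockout by 0.45 on the log2 scale (SE 0.11, edgeR adjusted p = 0.00911). It was 4.85-fold higher in the unchallenged knockout (log2 2.28 ± 0.13, edgeR adjusted p = 2.71e-08). The challenged genotype difference was 0.20 ± 0.12 and was not called (edgeR adjusted p = 0.164), except with column totals as the scaling (0.0488).

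Ms4a2, the signal-amplifying beta chain, was at 7.37, 5.99 and 7.01 CPM in unchallenged and 12.8, 11.9 and 12.3 CPM in challenged wild-type libraries. It was at 30.2, 28.8 and 20.7 CPM in unchallenged and 17.3, 24.6 and 20 CPM in challenged knockout libraries. All knockout libraries exceeded all wild-type ones, and the 2 knockout groups overlapped through unchallenged replicate 4. Ms4a2 rose with challenge in wild-type by 0.96 ± 0.16 (log2, edgeR adjusted p = 6.69e-05), less than Fcer1a on this scale, and the difference between the genes was not tested. In the knockout the value was -0.38 ± 0.14 (edgeR adjusted p = 0.0584). It became a call without unchallenged knockout replicate 4 (log2 -0.53, edgeR adjusted p = 0.00827) or without challenged knockout replicate 2 (log2 -0.50, edgeR adjusted p = 0.0191), and also with upper-quartile scaling (0.0352), without the filter (0.0496) and in DESeq2 (0.0449). The genotype difference was 1.99 ± 0.15 unchallenged (edgeR adjusted p = 4.53e-07) and 0.65 ± 0.14 challenged (edgeR adjusted p = 0.00163).

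The gamma chain of the receptor, Fcer1g, which NK cells use with their own Fc receptor, did not share the pattern. Its mean without challenge was 356 ± 27 CPM (SD, n = 3) in wild-type and 348 ± 15 CPM in knockout libraries, with a log2 difference of -0.01 ± 0.07 (edgeR adjusted p = 0.949). Of 24 genes of IgE receptor signalling, all tested, 1 was higher and 2 were lower in the unchallenged knockout, with a median of -0.06. The higher one was Rasgrp4, a Ras exchange factor of mast cells and myeloid cells, at log2 0.76 ± 0.14 (edgeR adjusted p = 0.00151). The lower ones were the adaptor Lcp2, at -0.25 ± 0.05 (edgeR adjusted p = 0.00289), and the phospholipase Plcg1, at -0.34 ± 0.08 (edgeR adjusted p = 0.011). In challenged wild-type cells 10 of the 24 rose and 8 fell, where 32.4% of all tested genes were called higher and 30.9% lower. For list counts in the unchallenged genotype comparison, here and below, the shares are 6.64% higher and 5.07% lower. Among the 24, the smallest p with challenge in wild-type were those of the kinases Prkcb, at -1.15 ± 0.06 (edgeR adjusted p = 1.10e-10), and Fyn, at -1.12 ± 0.06 (edgeR adjusted p = 2.47e-10). Most of these kinases and adaptors serve NK and other lymphoid receptors too.

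Cd200r3, the activating member of the CD200 receptor family found on basophils and mast cells, was at 6.6, 4.86 and 5.99 CPM in unchallenged and 5.72, 6.84 and 7.52 CPM in challenged wild-type libraries, which overlapped. It was at 18.8, 20.1 and 16.2 CPM in unchallenged and 11.4, 14.9 and 13.4 CPM in challenged knockout libraries, which did not overlap each other or the wild-type ones. The wild-type challenge gave a log2 fold change of 0.31 ± 0.15 that was not called (edgeR adjusted p = 0.0903), except without challenged wild-type replicate 1 (0.0398). In the knockout it fell by 0.48 on the log2 scale (SE 0.13, edgeR adjusted p = 0.014). That call was lost without unchallenged knockout replicate 3 (edgeR adjusted p = 0.0749). The genotype difference was 1.68 ± 0.14 unchallenged (edgeR adjusted p = 1.42e-06) and 0.89 ± 0.14 challenged (edgeR adjusted p = 0.000102).

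In the unchallenged knockout no relative of Cd200r3 was called higher with it. Of the ligand Cd200, the receptors Cd200r1, Cd200r2 and Cd200r4 and the adaptor Tyrobp, 1 of 5 was called in the unchallenged knockout, the ligand, which was lower (log2 -0.34 ± 0.10, edgeR adjusted p = 0.0348). Cd200r4, another activating receptor of the family, was at 30.5 ± 4.5 CPM in wild-type and 31.2 ± 2.2 CPM in knockout libraries without challenge (SD, n = 3). Reads could be shared among these similar receptors, and how the counting treated such reads is not known in detail. Challenge in wild-type came with a rise of Cd200 (log2 2.65 ± 0.09, edgeR adjusted p = 2.42e-12) and with falls of Cd200r2 and Tyrobp. Tyrobp, the adaptor, fell in the challenged knockout too (log2 -0.52 ± 0.08, edgeR adjusted p = 0.000244), as Cd200r3 did, and both were higher in the knockout when the genotypes were compared after challenge (Tyrobp at log2 0.47 ± 0.08, edgeR adjusted p = 0.00023). With challenge in wild-type, however, Tyrobp fell (log2 -0.78 ± 0.08, edgeR adjusted p = 7.89e-07) while Cd200r3 was not called. Of 12 NK markers, 9 also fell in the challenged knockout, where 11.5% of all tested genes were called lower. After challenge 9 of the 12 were higher in the knockout, where 22.7% of all tested genes were called higher.

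In unchallenged cells Kit differed between genotypes in the opposite direction to the other 8 genes. It was at 216, 204 and 182 CPM in unchallenged and 159, 158 and 160 CPM in challenged wild-type libraries. It was at 101, 101 and 108 CPM in unchallenged and 102, 101 and 97.6 CPM in challenged knockout libraries. All 6 knockout libraries were below all 6 wild-type ones, and the knockout groups overlapped. Kit was 1.92-fold lower in the unchallenged knockout (log2 -0.94 ± 0.06, edgeR adjusted p = 1.29e-07) and 1.7-fold lower in the challenged knockout (log2 -0.76 ± 0.06, edgeR adjusted p = 1.50e-07). It fell with challenge in wild-type by 0.23 on the log2 scale (SE 0.06, edgeR adjusted p = 0.00534), and the knockout value was -0.05 ± 0.06 (edgeR adjusted p = 0.639). The difference of these responses, 0.18 ± 0.09, was not called (edgeR adjusted p = 0.135), but was called without unchallenged wild-type replicate 4 (0.0455) and with upper-quartile scaling or column totals (0.0444 and 0.0183).

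Of 16 genes of the Kit pathway, all tested, 1 was higher in the unchallenged knockout and the other 15 were not called. It was Kitl, the Kit ligand (stem cell factor), at 1.09 ± 0.28 CPM in wild-type and 2.18 ± 0.38 CPM in knockout (SD, n = 3; log2 1.02 ± 0.28 SE, edgeR adjusted p = 0.0243). With challenge in wild-type 9 rose and 5 fell, against 32.4% and 30.9% of all tested genes. Those that rose included Kitl (log2 2.65 ± 0.25, edgeR adjusted p = 2.11e-07) and the feedback inhibitor Socs1 (log2 2.69 ± 0.13, edgeR adjusted p = 7.38e-11), while the ubiquitin ligase Cbl fell (log2 -1.13 ± 0.06, edgeR adjusted p = 1.28e-10).

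Gata2 was at 51, 54.4 and 46.9 CPM in unchallenged and 94.7, 94.7 and 109 CPM in challenged wild-type libraries. It was at 97.5, 98.6 and 99 CPM in unchallenged and 91.2, 78.5 and 75.2 CPM in challenged knockout libraries. The unchallenged knockout libraries lay within the range of challenged wild-type, and unchallenged wild-type stood apart as the lowest group. Gata2 rose with challenge in wild-type by 1.07 ± 0.08 (log2, edgeR adjusted p = 2.42e-08) and fell in the knockout by 0.28 on the log2 scale (SE 0.08, edgeR adjusted p = 0.0206). The knockout call was lost without challenged replicate 2 (edgeR adjusted p = 0.0699) or 3 (0.0909), without unchallenged replicate 3 (0.0625) or 4 (0.0573), and without both libraries in doubt (0.0979). It was 1.96-fold higher in the unchallenged knockout (log2 0.97 ± 0.08, edgeR adjusted p = 1.42e-06) and 1.3-fold lower in the challenged knockout (log2 -0.38 ± 0.08, edgeR adjusted p = 0.00135).

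Of 22 partners of Gata2 and genes of blood progenitors, all tested, 10 were higher and 2 lower in the unchallenged knockout. The higher ones with the smallest p were genes of immature granulocytes: Mpo (myeloperoxidase) at log2 2.98 ± 0.14 (edgeR adjusted p = 3.05e-09), the protease Prtn3 at 2.79 ± 0.20 (edgeR adjusted p = 2.44e-07) and Ctsg (cathepsin G) at 2.73 ± 0.24 (edgeR adjusted p = 1.87e-06). In wild-type challenge 13 of the 22 rose and 5 fell, against 32.4% and 30.9% of all tested genes. The smallest p were those of Mpo (3.25 ± 0.14, edgeR adjusted p = 2.17e-11), Prtn3 (3.57 ± 0.19, edgeR adjusted p = 4.09e-10) and the myeloid factor Spi1 (1.77 ± 0.11, edgeR adjusted p = 1.53e-09).

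Il4 was the least abundant of the 9 genes, with 12 to 41 counts in a library. It was at 0.982, 0.614 and 0.965 CPM in unchallenged and 0.736, 0.622 and 0.582 CPM in challenged wild-type libraries, which overlapped. It was at 1.53, 1.31 and 2.03 CPM in unchallenged and 0.972, 1.31 and 1.12 CPM in challenged knockout libraries. Il4 was 1.92-fold higher in the unchallenged knockout (log2 0.94 ± 0.27, edgeR adjusted p = 0.0332). That call was lost without unchallenged knockout replicate 2 (edgeR adjusted p = 0.0673) or 4 (0.164), without unchallenged wild-type replicate 2 (0.0582), 3 (0.145) or 4 (0.0551), without both libraries in doubt (0.0664), without the filter (0.0587) and in DESeq2 (0.0745). The wild-type and knockout challenge values, -0.29 ± 0.30 (edgeR adjusted p = 0.407) and -0.53 ± 0.26 (edgeR adjusted p = 0.147), were not called. The challenged genotype difference, 0.70 ± 0.28, was just outside the threshold (edgeR adjusted p = 0.0507) and was called under 3 other settings.

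The other cytokines of type 2 immunity were scarce. Il9, Il25 and Il31 were at 0 counts in all 4 groups, where a library's floor of 3 counts is the most that a count of 0 allows. Il13 had 14, 10, 12 and 10 counts summed over the 3 libraries of each group, wild-type before knockout and unchallenged before challenged. Il5 had 10, 0, 4 and 3 counts in the same order. Of 19 type 2 cytokines and regulators 12 were tested, and 1 was higher and 1 lower in the unchallenged knockout: Il13ra1, a receptor chain for the Il4 and Il13 proteins (log2 1.33 ± 0.19, edgeR adjusted p = 0.000198), and Il4ra, the Il4 receptor itself (log2 -0.74 ± 0.09, edgeR adjusted p = 2.82e-05). With challenge of wild-type mice 5 of the 12 rose and 5 fell, against 32.4% and 30.9% of all tested genes. The alarmin Il33 went from 0.0533 ± 0.055 to 5.57 ± 0.91 CPM (SD, n = 3; edgeR adjusted p = 1.44e-09), and Gata3 fell (log2 -1.21 ± 0.07, edgeR adjusted p = 7.37e-10).

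**Figure D2:**
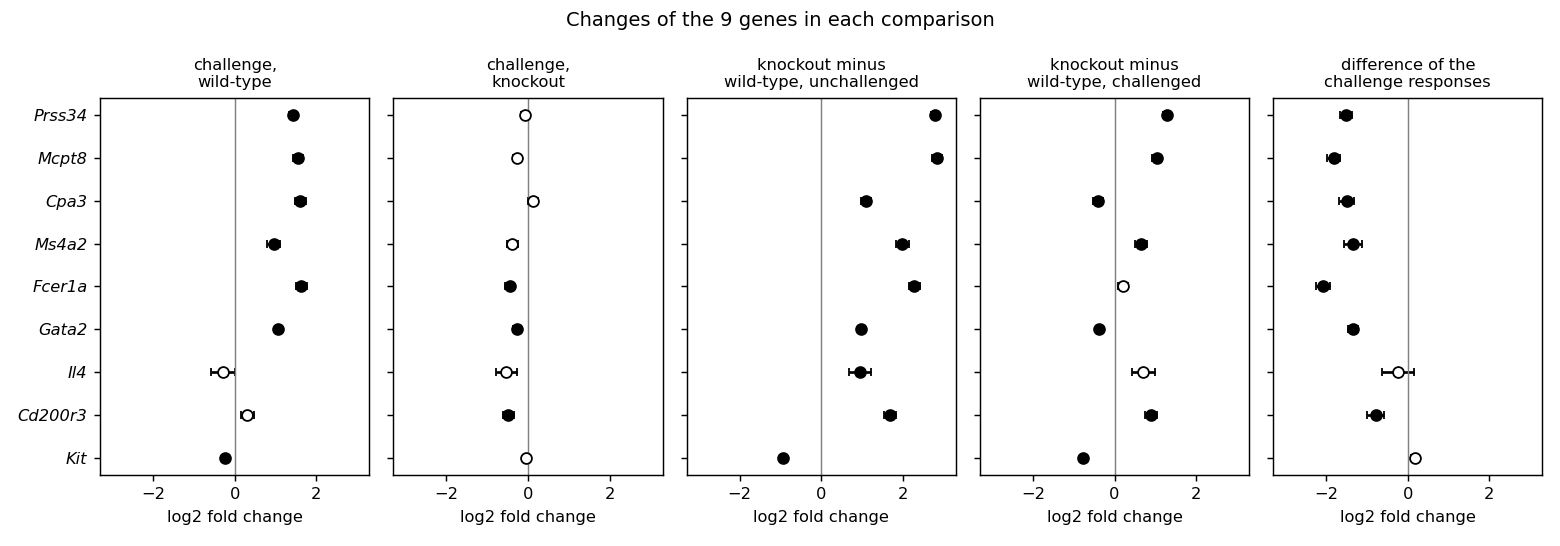
Log2 fold change (x axis) of each of the 9 genes (rows) in 5 comparisons (panels), with its SE as the bar. Filled points have an edgeR adjusted p below 0.05; in the unchallenged genotype comparison Kit, at -0.94, is the one filled point left of 0, and in the last panel 7 filled points lie at -2.08 to -0.79.

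The difference of the responses was largest for Fcer1a, at -2.08 ± 0.18 on the log2 scale (edgeR adjusted p = 4.42e-07), and Mcpt8, at -1.81 ± 0.16 (edgeR adjusted p = 6.69e-07). Prss34 was at -1.51 ± 0.14 (edgeR adjusted p = 8.58e-07), Cpa3 at -1.50 ± 0.18 (edgeR adjusted p = 1.50e-05), Gata2 at -1.35 ± 0.12 (edgeR adjusted p = 5.47e-07), Ms4a2 at -1.34 ± 0.21 (edgeR adjusted p = 0.000153) and Cd200r3 at -0.79 ± 0.20 (edgeR adjusted p = 0.00662). These 7 genes thus started higher in the knockout and gained less or lost with challenge. Both comparisons use the unchallenged libraries of the 2 genotypes, so they are not independent. Il4 was at -0.24 ± 0.39 and was not called (edgeR adjusted p = 0.677).

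Levels of different genes were compared per kilobase of the longest protein-coding transcript, as CPM per kb. In unchallenged wild-type the order was led by Kit, at 38.3 ± 3.3 CPM per kb (SD, n = 3), then Gata2, at 14.2 ± 1.1, and Prss34 and Cpa3, both at 5.44, which overlapped. In challenged wild-type Kit, at 30.4 ± 0.12 CPM per kb, overlapped Gata2, at 27.9 ± 2.3, and Cpa3, at 15.5 ± 1.6, overlapped Prss34, at 13.6 ± 0.3. Both knockout groups were led by Prss34, at 37.1 ± 1.3 CPM per kb unchallenged and 35.3 ± 3.7 challenged, followed by Mcpt8, Gata2 and Kit. Unchallenged, Mcpt8 was at 31.4 ± 0.58 CPM per kb and Kit at 19.7 ± 0.79. Fcer1a, Cpa3 and Ms4a2 came next in the knockout groups, and neighbours among these 3 overlapped. Cd200r3 was eighth and Il4 ninth in every group, at 1.07 to 2.69 CPM per kb for Il4, and in unchallenged wild-type these 2 overlapped. The longest transcript of Cd200r3 includes a long 3′ untranslated region, which lowers its value if shorter transcripts were the ones present.

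Counts were also set against those of Mcpt8 within each library, which needs no scaling between libraries. The Prss34 to Mcpt8 ratio lay between 1.55 and 2.05 in all 12 libraries, a 1.32-fold range, although Mcpt8 itself ran from 3.2 to 26.6 CPM. The Cpa3 to Mcpt8 ratio was 1.7 to 2.63 in unchallenged and 1.9 to 2.46 in challenged wild-type, but 0.578 to 0.726 in unchallenged and 0.717 to 1.01 in challenged knockout libraries. The 6 wild-type libraries were thus all above the 6 knockout ones, and the 2 wild-type groups overlapped. The Fcer1a to Mcpt8 ratio was 0.552 to 0.968 in the wild-type libraries and 0.39 to 0.553 in the knockout ones.

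The Kit to Mcpt8 ratio had the widest range of the 8, 16.6-fold. Its mean in wild-type was 55.2 ± 8.7 (SD, n = 3) before and 16 ± 1 after challenge, and in the knockout 3.93 ± 0.14 before and 4.6 ± 0.27 after. The Gata2 to Mcpt8 ratio was 13.9 ± 1.5 and 9.96 ± 0.57 in the wild-type groups and 3.75 ± 0.083 and 3.73 ± 0.11 in the knockout groups. Gata2 and Kit therefore did not keep their proportion to the protease between genotypes, whereas Prss34 nearly did. The Cd200r3 to Mcpt8 ratio set unchallenged wild-type apart, at 1.09 to 1.92 against 0.48 to 0.782 in the other 9 libraries.

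**Figure D3:**
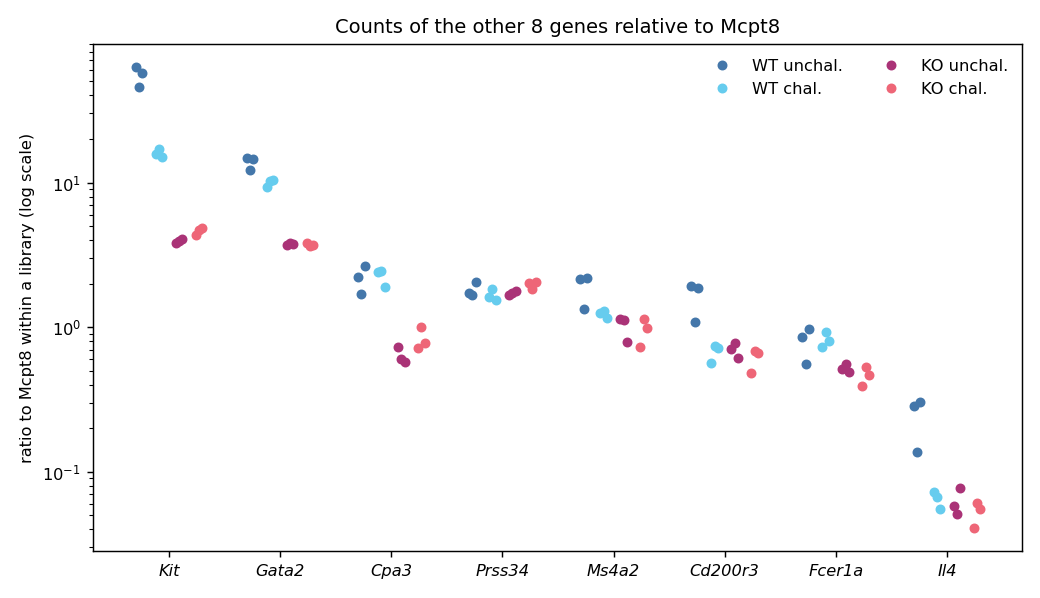
Count of each of the other 8 genes divided by the count of Mcpt8 in the same library (y axis, log scale), with 1 point per library coloured by group (abbreviations: WT wild-type, KO knockout, unchal. unchallenged, chal. challenged). Prss34 stays between 1.55 and 2.05 in all 12 libraries, while Kit runs from 3.79 to 62.9.

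Of 27 other basophil genes 25 were tested, and 19 were higher and 1 lower in the unchallenged knockout, with a median log2 fold change of 0.97. The list was chosen with results of these data known and is a description. Csf2rb2, a receptor subunit for Il3, went from 24.1 ± 1.5 to 80 ± 3.5 CPM (SD, n = 3; edgeR adjusted p = 5.15e-08), though its reads may not be fully separable from those of its close relative Csf2rb. Alox5, the enzyme that begins leukotriene synthesis, went from 5.41 ± 0.41 to 17.6 ± 1.2 CPM (edgeR adjusted p = 5.87e-08). Hdc, which makes histamine, went from 10.1 ± 1.2 to 50.2 ± 2 CPM (edgeR adjusted p = 5.87e-08). The lower one was Ikzf2, a factor chosen for naming after its value was seen, at log2 -0.50 ± 0.13 (edgeR adjusted p = 0.0193), which lost its call without unchallenged knockout replicate 4 or unchallenged wild-type replicate 2. Several of these genes, among them Alox5, Csf2rb and Hdc, are also transcribed by other myeloid cells.

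With challenge in wild-type 17 of the 25 basophil genes rose and 4 fell, with a median of 1.39, against 32.4% and 30.9% of all tested genes. Hdc rose to 168 ± 6.4 CPM (log2 4.15 ± 0.14, edgeR adjusted p = 5.98e-12), where the largest log2 fold change among the 9 genes was 1.63. Itga2 and Il18r1, which NK cells also carry, fell (log2 -1.83 ± 0.07, edgeR adjusted p = 6.71e-12, and -1.54 ± 0.06, edgeR adjusted p = 2.18e-11). In the challenged knockout Hdc was at 85.1 ± 17 CPM (SD, n = 3), where the proteases Prss34 and Mcpt8 were not called higher. The Hdc response in the knockout was 0.75 ± 0.12 (log2, edgeR adjusted p = 0.000295).

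Genes of tissue mast cells were mixed in the unchallenged knockout. Of 19 other mast cell genes 15 were tested, and 2 were higher, 4 lower and 9 not called, with a median of 0.16. The lower ones were Mcpt4, Tpsb2, Mrgprb1 and Hpgds, and the higher ones Hdc and Ctsg, which basophils or granulocytes also make. Mcpt4, a chymase of connective tissue mast cells, was at 3.66, 4.04 and 4.67 CPM in wild-type and 0.851, 1.04 and 0.891 CPM in knockout libraries without challenge (log2 -2.12 ± 0.19, edgeR adjusted p = 1.94e-06). Tpsb2, a tryptase, was at 3.93, 3.12 and 2.69 CPM against 1.36, 0.678 and 1.53 CPM (log2 -1.44 ± 0.26, edgeR adjusted p = 0.00161). Mrgprb1, a receptor of the mast cell Mrgpr group, had 39 counts over the wild-type and 9 over the knockout libraries (log2 -2.11 ± 0.46, edgeR adjusted p = 0.00562). None of these overlapped between the groups, and Kit shared their direction.

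With challenge in wild-type 12 of the 15 rose and 1 fell, with a median of 2.04, against 32.4% and 30.9% of all tested genes. In the knockout 9 rose and 1 fell, against 15.6% and 11.5% of all tested genes. Genes that rose in both genotypes include Gzmb, Ctsg and Hdc, which NK cells, granulocytes or basophils also make. Mcpt4 rose by 1.37 ± 0.15 in wild-type (log2, edgeR adjusted p = 9.67e-07) and by 1.70 ± 0.19 in the knockout (edgeR adjusted p = 1.09e-05). Tpsb2 rose by 2.04 ± 0.21 (edgeR adjusted p = 5.75e-07) and 1.74 ± 0.26 (edgeR adjusted p = 0.000129). Thus Mcpt4 and Tpsb2 rose with challenge in both genotypes, whereas Prss34, Mcpt8 and Cpa3 were called in wild-type alone, and their difference of responses was called. The gene that fell was Cma1, a chymase, which went from 85.7 ± 7.8 to 21.6 ± 3.5 CPM in wild-type and from 94.4 ± 7.4 to 58.7 ± 5.2 CPM in the knockout (SD, n = 3). Mcpt1, Mcpt2 and Tpsab1 had 1 to 6 counts over an unchallenged group, too few to place them, and are similar in sequence to other proteases of their families.

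Mcpt8 lies in the chymase and granzyme cluster on chromosome 14, and 1 of its tested neighbours, Ctsg, was also higher in the unchallenged knockout (log2 2.73 ± 0.24, edgeR adjusted p = 1.87e-06). Of 14 other genes of that cluster 8 were tested, and besides Ctsg 1 was lower (Mcpt4) and 6 were not called. Gzmb, the granzyme of NK and T cells, was at 246 ± 17 CPM in wild-type and 252 ± 9.9 CPM in knockout (SD, n = 3; edgeR adjusted p = 0.76). With challenge in wild-type 7 of the 8 rose, Gzmb to 1730 ± 28 CPM, and 1 fell, against 32.4% and 30.9% of all tested genes.

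**Figure D4:**
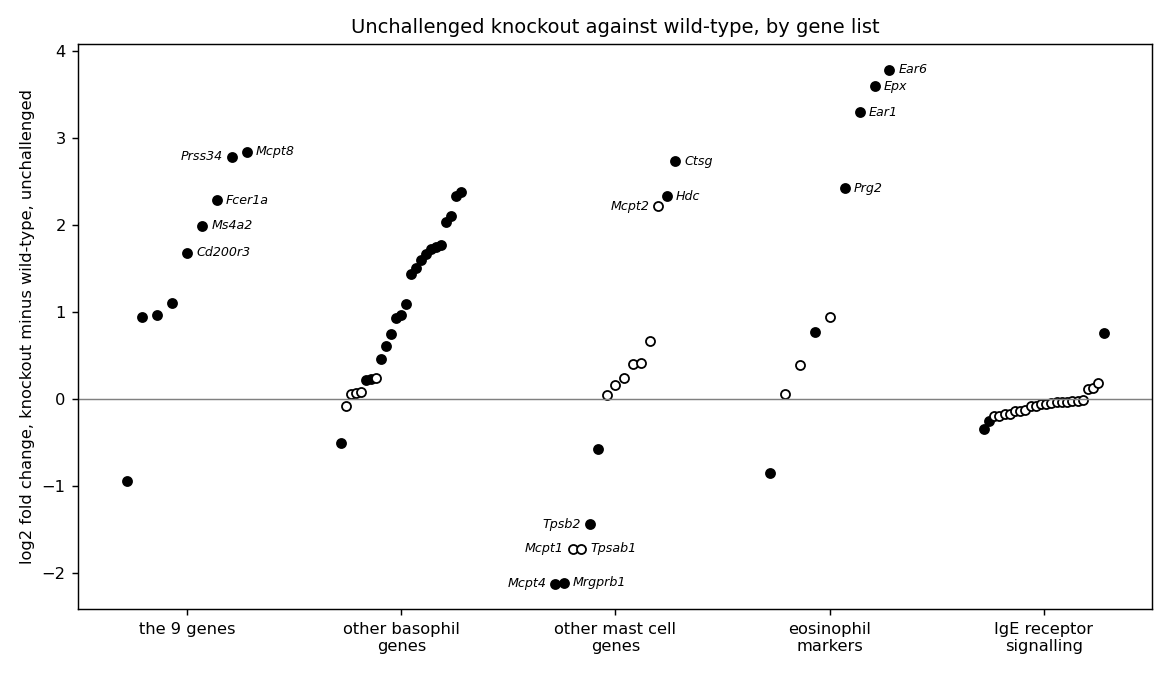
Log2 fold change (y axis), unchallenged knockout minus unchallenged wild-type, of each tested gene in 5 lists (x axis), in rising order within a list; filled points have an edgeR adjusted p below 0.05. The 9 genes and the other basophil genes lie mostly above 0, with medians of 1.68 and 0.97, while the other mast cell genes have a median of 0.16 and lie on both sides, from Mcpt4 at -2.12 to Ctsg at 2.73; a gene in 2 lists, such as Hdc, is drawn in both.

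Markers of other cells also differed between the groups, some in the direction of the 9 genes and some against it. All of the following lists were summed over their genes in the table, and their part in the results was not tested. The 10 neutrophil markers summed in wild-type libraries to 76.3 to 82 CPM unchallenged and 1680 to 1990 CPM challenged. In the knockout they summed to 477 to 495 CPM and 849 to 1300 CPM, with 9 of the 10 higher in the unchallenged knockout and the other one not called. Of 9 eosinophil markers, 5 were higher and 1 lower there, and their sum went from 26.6 to 30.8 CPM in wild-type to 48.4 to 51.3 CPM in knockout. The eosinophil granule gene Prg2, which basophils also transcribe, went from 2.77 ± 0.28 to 14.6 ± 0.9 CPM (SD, n = 3; log2 2.42 ± 0.17, edgeR adjusted p = 2.30e-07). Epx, eosinophil peroxidase, went from 0.172 ± 0.074 to 2.14 ± 0.051 CPM (log2 3.59 ± 0.44, edgeR adjusted p = 3.95e-05).

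The 8 erythroid markers in the table were all higher in the unchallenged knockout and summed to 7580 to 8790 CPM in wild-type and 24300 to 27000 CPM in knockout. The 8 platelet and megakaryocyte markers were all lower, at 434 to 592 CPM and 201 to 223 CPM. The 10 macrophage and monocyte markers had 5 higher and 5 not called, with sums of 420 to 444 CPM and 521 to 543 CPM. Of 12 T cell markers 7 were lower, and of 10 B cell markers 9 were lower, and the rest were not called. The 12 NK markers summed to 7070 to 8120 CPM in wild-type and 7350 to 7710 CPM in knockout, and the smallest adjusted p among them was that of the factor Tbx21 (log2 0.23 ± 0.07, edgeR adjusted p = 0.0548). Of 11 markers of group 2 innate lymphoid cells 8 were tested, with 1 higher and 1 lower. No neutrophil, erythroid, platelet, macrophage or eosinophil marker in these lists was at 0 over a whole group.

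With challenge in wild-type all 10 neutrophil markers and 9 of the 10 macrophage and monocyte markers rose. All 8 platelet and megakaryocyte markers, all 12 T cell markers, 6 of the 8 erythroid markers and 9 of the 12 NK markers fell. For the list counts of this paragraph, the shares over all tested genes are 32.4% called higher and 30.9% called lower. The erythroid sum went from a mean of 8070 to 1370 CPM. Of the 9 eosinophil markers 1 rose, 2 fell and 6 were not called, and their sum was 25.2 to 26.6 CPM. Of the 10 B cell markers 7 rose and 1 fell, and of the 8 tested markers of group 2 innate lymphoid cells 6 rose and 1 fell. The NK gene Klrb1c went from 956 ± 48 to 147 ± 4.8 CPM (SD, n = 3). In challenged knockout libraries the spread of neutrophil markers was widest, and replicate 3 was lowest at 849 CPM. In that library Prss34 was at 41.3 CPM and Mcpt8 at 20.2 CPM, the second being the lowest of its group.

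For each of the 9 genes, the genes most like it were taken by the Pearson correlation of log2 CPM over the 12 libraries, among tested genes with a mean of at least 1 CPM. These values have no test, since all points share the 4 groups and the libraries' make-up. Mcpt8 and Prss34 correlated with each other at 0.994. Outside the 9, the closest to Mcpt8 was Camp, a neutrophil granule peptide, at 0.983, and Camp was also closest to Prss34 (0.969) and Ms4a2 (0.951). Fcer1a was closest to the chemokine Ccl9 (0.984), Cpa3 to Cldn1 (0.978) and Il13ra1 (0.975), and Gata2 to Emilin2 (0.977). Cd200r3 was closest to Eldr (0.972), Kit to Ide (0.979) and Il4 to Phlpp2 (0.924). Kit correlated with Prss34 at -0.948, and Cpa3 with Il4 at 0.064.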

How the data were processed

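PolyA RNA of 12 libraries in 4 groups of 3 was analysed from the authors' deposited table of counts per gene, which are whole numbers without normalization. The submitters' processing notes name GRCm38, RSEM 1.3.0, Bowtie2 2.2.8, Trim Galore 0.4.1 and bcl2fastq. RSEM gives estimated counts. The rounding, annotation and strand setting behind the deposited values were not given in the sources used here. All 12 value columns were used, and every row had a symbol. No 2 libraries of a group agreed within counting noise (squared differences were 3.509 to 26.737 times that noise).

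CPM were computed from column totals. Genes were filtered with filterByExpr and tested with edgeR 4.0.16 (R 4.3.3; robust quasi-likelihood F test, TMM, 1 term per group, 8 residual degrees of freedom), with Benjamini-Hochberg adjustment over the 16694 genes of each contrast and a threshold of 0.05. The SE is the log2 fold change divided by the square root of F. Alternatives were RLE, upper-quartile and column-total scaling, no filter, at least 1 CPM in 3 libraries, DESeq2 1.42.0, limma-voom (limma 3.58.1), only the groups compared, a replicate block, and leaving out each library or both libraries in doubt, the last chosen after seeing the data. Where a symbol had 2 rows (Lilrb4a), the higher one was used. Levels per kb used GENCODE vM21, and likeness used log2 CPM with a prior count of 2.

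Same-numbered libraries were not treated as pairs: nothing says what a number shares, and deviations from the group means of same-numbered unchallenged libraries correlated at 0.12, -0.048 and 0.006 between genotypes.

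All 9 genes, up to 3 genes with the smallest p per list in the wild-type challenge and unchallenged genotype contrasts, and members of the mast cell, CD200 receptor, chymase and granzyme, eosinophil and sex-linked lists could be named, with others given as list counts or as named after their values were seen. The genes and lists were chosen with earlier results of these data known. The microRNA seed matches of Kit are not reported here.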

Additional observations from a re-analysis of the deposited data

Results flagged for a closer look

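For 7 of the 9 genes the response to challenge differed between the genotypes by the interaction term of the edgeR fit (adjusted p below 0.05; 35.2% of all tested genes were called in either direction). Challenge in the knockout minus challenge in wild-type was -1.51 for Prss34, -1.81 for Mcpt8, -1.50 for Cpa3, -1.34 for Ms4a2, -2.08 for Fcer1a, -1.35 for Gata2 and -0.79 for Cd200r3, on the log2 scale. Each of the 7 was higher in unchallenged knockout than in unchallenged wild-type cells. The same unchallenged libraries enter the interaction term, so these results are not independent. All 7 stayed called lower when any single library was left out, and without both libraries in doubt. Neutrophil markers had a lower response in the knockout too, for 10 of 10 of them, where 18.5% of all tested genes were called lower. The part of these markers in the differences of the 7 genes was not tested.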

How the results depend on the processing

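The count of members called lower with challenge in the knockout, 3, became 5 with upper-quartile scaling and in DESeq2, 1 with the replicate block and 1 to 4 when 1 library was left out. With the replicate block Fcer1a and Cd200r3 lost that call (edgeR adjusted p = 0.0615 and 0.0554), and the block changed no other call of the 9 genes. The members called higher in the difference of responses, 0, became 1 (Kit) with upper-quartile scaling or column totals and 0 to 1 when 1 library was left out. Other basophil genes called lower in the unchallenged knockout, 1, were 0 to 1. The Cpa3 response in the knockout ranged from -0.01 (without challenged knockout replicate 2) to 0.23 when 1 library was left out, against 0.12 with all libraries. With TMM-scaled libraries, mean levels moved by over 1 SD for Prss34 (17.5 CPM), Ms4a2 (12.9 CPM) and Kit (167 CPM) in challenged wild-type and for Gata2 (97.4 CPM) in unchallenged knockout. TMM scales all genes of a library by the same factor, so these shifts are not particular to the genes named. Their SDs were small, at 0.37, 0.48, 0.64 and 0.8 CPM in that order. All other counts of called members stayed within 1.5 times under every alternative run, and no other direction turned.

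Upper-quartile scaling and column totals moved the median of all genes with challenge in wild-type to -0.12 and -0.11, and its higher and lower calls from 5411 and 5166 to 4634 and 6184, and to 4658 and 6151. In the challenged genotype comparison they went from 3792 and 4332 to 4606 and 3520, and to 4870 and 3361. In the difference of responses they went from 2791 and 3085 to 3314 and 2680, and to 3836 and 2380. With challenge in the knockout upper-quartile scaling took them from 2596 and 1915 to 2263 and 2583. Depth limits Il4, at 12 to 41 counts a library, and the mast cell genes under 10 counts a group.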
